A study of Arabidopsis thaliana with 16 samples.

Results

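LBD16 is a transcription factor of the plant-specific LOB-domain family that acts at the start of lateral root formation. Auxin switches it on in root cells next to the xylem through the auxin response factors ARF7 and ARF19, and it is required for the first asymmetric divisions of those cells. In a fusion with the glucocorticoid receptor (GR), a factor stays in the cytoplasm until the steroid dexamethasone (DEX) lets it enter the nucleus. Cycloheximide (CHX) blocks translation, so where the block is complete a transcript that still responds to DEX needs no newly made intermediate protein. Such a design is used to look for primary targets of a factor.

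The comparison described here is the DEX effect in roots treated with CHX, measured on 8 of the 16 arrays of the series. All plants were Arabidopsis thaliana seedlings of 5 days that carried gLBD16:GR, the fusion under the regulatory region of LBD16 itself, in the lbd16-1 lbd18-1 lbd33-1 triple mutant. The 4 groups used were CHX, DEX+CHX, NAA+CHX and NAA+DEX+CHX, with 2 arrays each, where NAA is a synthetic auxin. Treatment lasted 4 h with 10 µM CHX in all 4 groups, and with 2 µM DEX or 1 µM NAA where the name says so. The 2 groups with DEX were compared with the 2 groups without it, within each auxin state, and the 2 differences were averaged. The other 8 arrays had the same DEX and NAA treatments without CHX (mock, DEX, NAA and NAA+DEX). All roots came from plants with the fusion, so a response to DEX itself and one to LBD16 cannot be told apart. The labels do not say how many transgenic lines were used, nor that the 2 arrays of a group came from separate cultures beyond calling them independent sets. The p-values therefore measure the spread between these arrays, which may be technical.

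Values are deposited intensities, 1 per probe set and array, and changes are differences of log2(intensity + 16) with their standard error (SE). The constant 16 damps the noise of weak signals and understates their fold changes. A probe set passed the test, or was called, at a Benjamini-Hochberg adjusted p under 0.05 over all 22746 probe sets, in limma's moderated test with all 16 arrays in 1 model. Intensities of different probe sets are not compared, since each probe set has its own response to RNA.

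On the 8 arrays with CHX the median intensity was 179.2 to 182.8 with DEX and 180.7 to 189.2 without it. The first principal component of these arrays (26.4% of the variance) separated the 4 with NAA from the 4 without, and the second (14.3%) separated the 4 with DEX from the 4 without. RNA quality was read from the 3′-to-5′ signal ratio of control transcripts. For a ubiquitin control this ratio was 1.288 to 1.419 with DEX and 1.013 to 1.197 without it, and for a GAPDH control it was 1.045 to 1.202 with DEX and 1.323 to 1.565 without it. These 2 ratios differed between the DEX groups in opposite directions, while those of the other 4 control pairs overlapped. Their part in the DEX effect was not tested. The labels name 2 labelling kits by array codes that could not be matched to these arrays, so labelling was not entered as a batch and its part was not tested either. Few marker genes of tissues had a listed probe set. EXPA7, a root hair expansin, had a group mean of 632.5 to 1169 with CHX, and the stomatal lineage genes SPCH, MUTE and FMA (FAMA) stayed at 14.42 or lower. STZ, a zinc-finger factor of rapid stress responses, averaged 111.9 in mock roots and 23250 in CHX roots. The degree of the block of protein synthesis was not measured by these arrays.

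Few probe sets passed the test for DEX under CHX. Responses too small to pass with 2 arrays per group are not counted here. In these whole-root samples a change in the number of cells of a type and a change in RNA per cell cannot be told apart. Of 22746 probe sets 33 passed (0.145%), of which 27 rose (0.119%) and 6 fell (0.0264%). Exactly 1 gene is listed for 16 of the rises and 4 of the falls, and no gene is listed for the other 11 and 2. The rises lay between 0.56 and 3.11 on the log2 scale with a median of 1.1, and 16 of them were at least 1. The falls lay between -0.59 and -1.02. The median change over all probe sets was -0.02, and the median SE was 0.15. In all 27 rises, all 4 arrays with DEX lay above all 4 without it, which held for 1.11% of all probe sets. In 5 of the 6 falls they lay below, which held for 1.78%. The calls were made on these same arrays, so this separation follows largely from the choice. The count of 33 was 21 without DEX+CHX replicate 2, and the falls numbered 2 to 13 with 1 array left out. In a model of the 8 arrays with CHX alone, 11 probe sets passed, all of them rises, and 20 passed (17 rises and 3 falls) where DEX and NAA were additive terms.

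**Figure D1:**
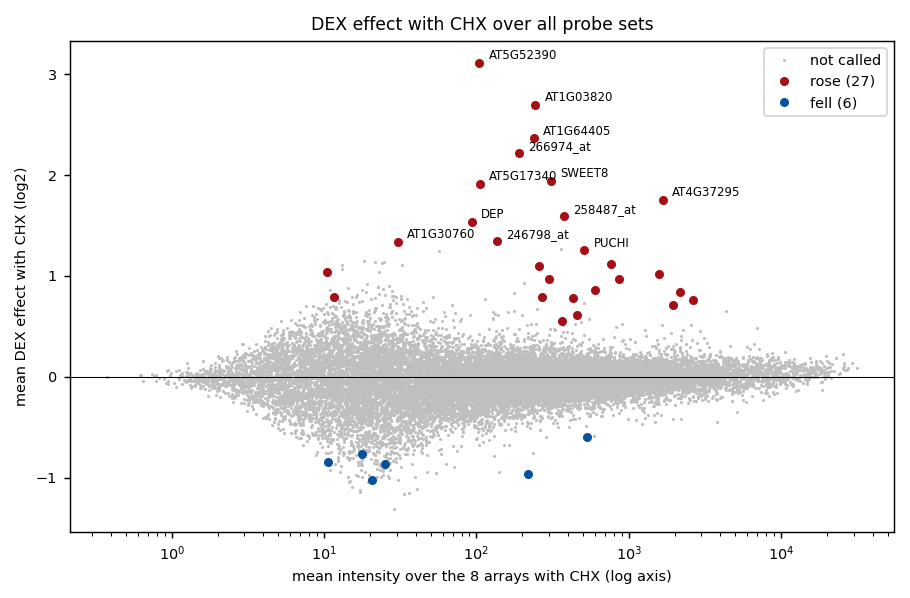
Mean DEX effect with CHX (log2) against the mean intensity over the 8 arrays with CHX (log axis) for all 22746 probe sets, with the 27 called rises in red and the 6 called falls in blue. The rises reach 3.11 and the falls -1.02, and names are given for called rises above 1.2.

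Among genes with a known role in lateral root formation, PUCHI rose. PUCHI (AT5G18560) is an AP2/ERF transcription factor that acts in lateral root primordia. Its probe set measured 275.9 and 291.1 on the CHX arrays and 793.4 and 672.8 on the DEX+CHX arrays. With NAA it measured 297.1 and 318.6 without DEX and 775.6 and 670.2 with it. The 4 DEX values stood clear of the other 4, and NAA left the level within a narrow range in either DEX state. The mean change was 1.25 (2.38-fold, SE 0.11, adjusted p = 0.00039), and PUCHI stayed called in each setting and with each array left out. Its 2 single-state changes were 1.32 and 1.19, and the difference between them was -0.13 (SE 0.21, adjusted p = 1).

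LBD16 and LBD29, the LOB-domain genes with a listed probe set, did not pass. LBD16 measured 891.2 and 895.8 with CHX, 774.5 and 940.1 with DEX+CHX, 1157 and 1127 with NAA+CHX, and 1424 and 1440 with NAA+DEX+CHX. The DEX arrays overlapped the others without NAA and lay above them with NAA, and the mean change was 0.13 (SE 0.11, adjusted p = 1). The sources used here do not say if transcripts of the fusion and of the mutated LBD16 locus both bind to it. LBD29, a related gene that auxin induces in lateral root initiation, measured 617.1 and 722.6 with CHX against 466.5 and 414.6 with DEX+CHX, and 809.3 and 713.6 with NAA+CHX against 455.8 and 547.1 with NAA+DEX+CHX. Its 4 DEX arrays were the lower ones in both auxin states, but the mean of -0.59 (SE 0.13) did not pass (adjusted p = 0.24). Without CHX the mean DEX effect on LBD29 was -0.89 and was called (adjusted p = 0.0061). The difference between the 2 effects was 0.31 and did not pass (DEX by CHX interaction, adjusted p = 0.76). LBD18 and LBD33, which are mutated in this line along with LBD16, have no listed probe set here.

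An auxin-conjugating enzyme and 2 expansins rose by less than PUCHI. WES1 (GH3.5) links free auxin to amino acids. It measured 1351 and 1459 with CHX and 2410 and 2707 with DEX+CHX, and with NAA 1677 and 1712 against 3034 and 3004. The groups were far apart relative to their spread, and the change of 0.84 (1.79-fold, SE 0.08, adjusted p = 0.0015) was alike in the 2 states (0.86 and 0.83). EXPA4 (AT2G39700), an alpha-expansin that loosens cell walls during growth, measured 2001 and 2095 against 3552 and 3494 without NAA, and 1775 and 1916 against 3143 and 3080 with it. It rose by 0.76 (1.7-fold, SE 0.09, adjusted p = 0.0042), with no overlap in either state. EXPA20 (AT4G38210), another alpha-expansin, rose by 0.86 (SE 0.12, adjusted p = 0.014), from 416.1 and 319.5 to 692.9 and 672.9 without NAA and from 454.5 and 494.6 to 847.2 and 883.2 with it. The WES1 and EXPA4 calls were kept with each array left out. The EXPA20 call was lost in 7 of 8 such settings, kept only without CHX replicate 1, with adjusted p up to 0.11 over all settings. None of these 3 genes passed in a model of the 8 CHX arrays as 4 group means.

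SWEET8 (AT5G40260), a member of the SWEET family of sugar transporters also known as RUPTURED POLLEN GRAIN1, was the largest rise among genes with a symbol at the constant of 16. It measured 75.46 and 95.16 with CHX, 314.4 and 245.1 with DEX+CHX, 130.2 and 135.6 with NAA+CHX, and 727.9 and 755 with NAA+DEX+CHX. On the 8 arrays without CHX it lay between 6.83 and 37.16, below each array with CHX. The mean DEX effect with CHX was 1.94 (3.85-fold, SE 0.21, adjusted p = 0.0028). SWEET8 lost its call with a constant of 1 in place of 16 (adjusted p = 0.16) and kept it in the other settings. The other 15 measured SWEET genes were not called, and SWEET13 and SWEET6 had the smallest p among them, with -0.37 and -0.71 (adjusted p = 0.35 and 0.43).

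The other rises with a symbol were DEP and LCR67. DEP (AT1G70910, DESPIERTO) measured 37.38 and 32.41 with CHX, 110.6 and 115.6 with DEX+CHX, 36.99 and 50.96 with NAA+CHX, and 163.4 and 200 with NAA+DEX+CHX. Its DEX arrays were all above 100 and its other arrays all below 60 in intensity, a rise of 1.53 (2.9-fold, SE 0.14, adjusted p = 0.00064). LCR67 (PDF1.1), a plant defensin, measured 1.59 and 1.186 with CHX against 10.79 and 18.74 with DEX+CHX, and 0.582 and 1.071 with NAA+CHX against 32.62 and 17.44 with NAA+DEX+CHX. The DEX arrays were the higher ones, all at weak signal, and the table used here holds no detection call. Its change was 1.04 (SE 0.12, adjusted p = 0.0053), and it was 0.36 with a constant of 64 and 3.23 with a constant of 1, so the size depends on that constant. LCR67 was not called with a constant of 64, with an intensity trend and robust prior, or in the models of the 8 CHX arrays.

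With the constant of 16, the largest rises were loci known in the gene table only by number, for which no role is given. AT5G52390 measured 6.84 and 2.511 with CHX, 171.8 and 214.7 with DEX+CHX, 5.659 and 24.22 with NAA+CHX, and 254.1 and 158.5 with NAA+DEX+CHX. It went from near the floor of the scale to a clear signal in both auxin states, a rise of 3.11 (8.63-fold, SE 0.21, adjusted p = 6.2e-05) that was 1.83 with a constant of 64 and 4.58 with a constant of 1. With a constant of 64 it was below AT1G03820 (2.08) and AT1G64405 (1.84), so its rank rests on that constant. AT1G03820 measured 53.79 and 56.78 with CHX, 451.4 and 415.9 with DEX+CHX, 44.11 and 58.94 with NAA+CHX, and 368.8 and 505 with NAA+DEX+CHX. The change of 2.7 (6.49-fold, SE 0.14, adjusted p = 8.3e-06) was of like size in the 2 states, at 2.66 and 2.74.

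AT1G64405 measured 79.63 and 58.05 with CHX, 231.1 and 263.8 with DEX+CHX, 52.91 and 57.63 with NAA+CHX, and 594.6 and 582.9 with NAA+DEX+CHX. The arrays with both DEX and NAA were well above those with DEX alone, while NAA without DEX left the level low. The mean change was 2.36 (5.15-fold, SE 0.1, adjusted p = 2.4e-06). AT5G17340 followed the same order, with 45.07 and 30.32 for CHX, 142.3 and 121.7 for DEX+CHX, 32.43 and 29.09 for NAA+CHX, and 221.2 and 222.5 for NAA+DEX+CHX (mean change 1.91, SE 0.12, adjusted p = 4.1e-05).

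AT4G37295 measured 729.2 and 673.7 with CHX, 1863 and 2249 with DEX+CHX, 724.9 and 846.3 with NAA+CHX, and 3285 and 3014 with NAA+DEX+CHX, a rise of 1.75 (3.37-fold, SE 0.11, adjusted p = 4.2e-05). AT1G30760 measured 25.75 and 8.451 with CHX, 30.24 and 37.58 with DEX+CHX, 1.219 and 7.431 with NAA+CHX, and 54.82 and 80.41 with NAA+DEX+CHX. Its groups were close together without NAA, and its change of 1.34 (SE 0.17, adjusted p = 0.01) was lost without DEX+CHX replicate 2 or NAA+CHX replicate 1, with a constant of 1 and in both models of the 8 CHX arrays, with adjusted p up to 0.48 over all settings. AT1G77280 measured 163.5 and 146.3 with CHX, 328.3 and 312.4 with DEX+CHX, 186.2 and 140 with NAA+CHX, and 402.4 and 395.3 with NAA+DEX+CHX. Its DEX arrays were about double the others in both states, with a change of 1.1 (2.15-fold, SE 0.11, adjusted p = 0.0019) that did not pass in the 8 CHX arrays as group means (adjusted p = 0.056). The 2 remaining named rises were AT1G28400 (0.97, SE 0.1, adjusted p = 0.0022) and AT4G14390 (0.78, SE 0.12, adjusted p = 0.045). AT1G28400 lost its call in both models of the 8 CHX arrays (adjusted p up to 0.1). AT4G14390 lost its call in 7 of the 8 settings with 1 array left out, all but that without NAA+DEX+CHX replicate 2.

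**Figure D2:**
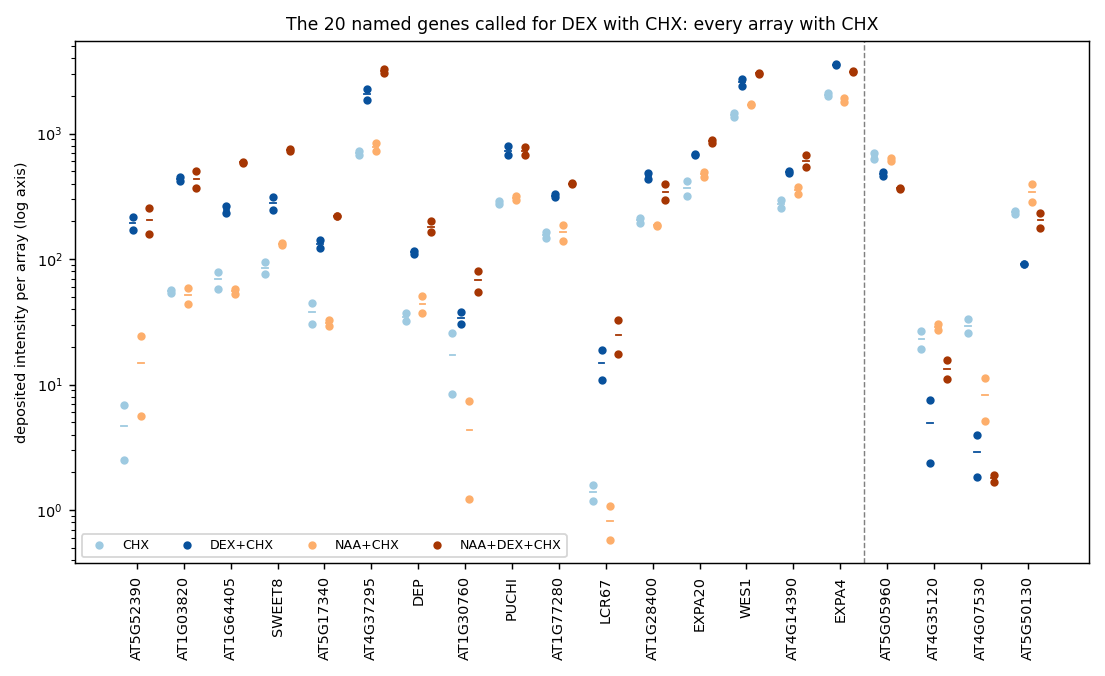
Deposited intensity (log axis) of the 20 named called genes on each of the 8 arrays with CHX, as points by group (CHX light blue, DEX+CHX dark blue, NAA+CHX light orange, NAA+DEX+CHX dark orange) with a bar at the mean of 2 arrays. The 16 genes left of the dashed line rose and the 4 right of it fell, and AT5G52390 lies at 2.511 to 24.22 without DEX and at 158.5 to 254.1 with it.

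The falls were smaller than most rises, and the 4 with a listed gene each lost their call when single arrays were left out. AT5G50130 measured 230.6 and 240.4 with CHX against 91.04 and 91.47 with DEX+CHX, and 287.4 and 394.7 with NAA+CHX against 176.8 and 233.1 with NAA+DEX+CHX. It was lower with DEX within each auxin state, although 1 NAA+DEX+CHX array exceeded a CHX array (mean change -0.96, SE 0.15, adjusted p = 0.039). AT5G05960 measured 698.1 and 621.7 against 460.5 and 497.7 without NAA, and 606.8 and 635.3 against 363.4 and 370.4 with it (mean change -0.59, SE 0.09, adjusted p = 0.038). Both lay at moderate signal, with all DEX arrays lower within a state. Over all settings their changes ran from -1.07 to -0.77 and from -0.63 to -0.54.

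AT4G35120 measured 19.4 and 26.88 with CHX, 2.365 and 7.606 with DEX+CHX, 27.38 and 30.58 with NAA+CHX, and 11.12 and 15.6 with NAA+DEX+CHX (mean change -0.76, SE 0.11, adjusted p = 0.022). AT4G07530 measured 33.05 and 25.59 with CHX, 1.835 and 3.955 with DEX+CHX, 11.33 and 5.143 with NAA+CHX, and 1.677 and 1.918 with NAA+DEX+CHX (mean change -0.85, SE 0.14, adjusted p = 0.046). Both were at weak signal on every array with CHX. Over all settings their changes ran from -1.61 to -0.3 and from -2.32 to -0.31, so their size depends on the setting. None of the 4 named falls kept its call in all 8 settings with 1 array left out: AT5G05960 and AT4G07530 lost it in all 8, AT5G50130 in 6 (kept without NAA+CHX replicate 1 and NAA+DEX+CHX replicate 2) and AT4G35120 in 5 (kept without CHX replicate 1, DEX+CHX replicate 2 and NAA+DEX+CHX replicate 2). Of the 2 falls with no listed gene, 246933_at kept its call in all 8 and 259831_at lost it in 6. Over all settings their changes ran from -1.834 to -0.359 and from -1.943 to -0.425. Probe set 246933_at measured 33.49 and 29.99 with CHX, 27.91 and 22.77 with DEX+CHX, 39.48 and 39.66 with NAA+CHX, and 1.42 and 5.552 with NAA+DEX+CHX. The arrays with both NAA and DEX were the low ones, with changes of -0.21 without NAA (adjusted p = 1) and -1.52 with it (adjusted p = 0.0016). Its mean change of -0.865 (adjusted p = 0.0053) was not called with a constant of 64 or in the models of the 8 CHX arrays. Of the named rises, 13 of the 16 kept the call in all 8, the exceptions being AT1G30760, EXPA20 and AT4G14390. AT5G52390, AT1G03820, AT1G64405, AT5G17340, AT4G37295, DEP and PUCHI, 7 of the 20 named genes, were called in every setting run. Just outside the threshold lay AT1G48100 (-0.75, adjusted p = 0.059) and then AT1G01225 (0.64), AT4G14380 (0.67), AT5G08460 (-0.95), AT5G66440 (-0.49) and AT1G10110 (-0.73), each with an adjusted p of 0.061.

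The DEX effect with CHX was next taken in each auxin state and the difference between the states was tested. Without NAA 12 probe sets passed (0.0528%), all rises, and with NAA 25 passed (0.11%), of which 21 rose (0.0923%) and 4 fell (0.0176%). Leaving out CHX replicate 2 reduced the 12 to 5, and leaving out the first or second DEX+CHX array gave 6 or 4. For the 25, the count was 15 or 12 when the first or second NAA+CHX array was dropped and 14 when the first NAA+DEX+CHX array was. Both states called 10 of the same probe sets, namely AT5G52390, AT1G03820, AT1G64405, AT5G17340, AT4G37295, DEP, PUCHI, WES1, 266974_at and 258487_at. Of these, AT5G52390, AT1G03820, AT1G64405 and 266974_at kept both calls with each array of the comparison left out. The DEX by NAA interaction within the CHX arrays called 0 probe sets (0%) in limma, with 1067 at an unadjusted p under 0.05 and a smallest adjusted p of 0.15. With an intensity trend and robust prior 2 were called, AT1G64405 (1.44, adjusted p = 0.02) and AT1G08670 (2.62, adjusted p = 0.037), and without DEX+CHX replicate 1 a single one, AT5G60400 (-2.33, adjusted p = 0.021).

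The 27 rises had a median of 0.98 without NAA and 1.22 with it, and 17 of them were larger with NAA and 10 smaller. The widest gap among named rises was that of AT1G64405, at 1.64 without NAA and 3.09 with it (difference 1.44, SE 0.2, adjusted p = 0.15). AT1G30760 gave 0.64 and 2.04 (difference 1.4, SE 0.35, adjusted p = 0.66), AT5G17340 1.47 and 2.35 (difference 0.88, SE 0.24, adjusted p = 0.89) and SWEET8 1.54 and 2.35 (difference 0.8, SE 0.42, adjusted p = 1). None of these differences passed, and with this SE a difference between the states is measured less precisely than the mean effect. AT5G52390 had the opposite order, at 3.34 and 2.88. WES1, EXPA4, EXPA20 and AT4G14390 differed between states by -0.03, -0.03, -0.03 and -0.05.

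**Figure D3:**
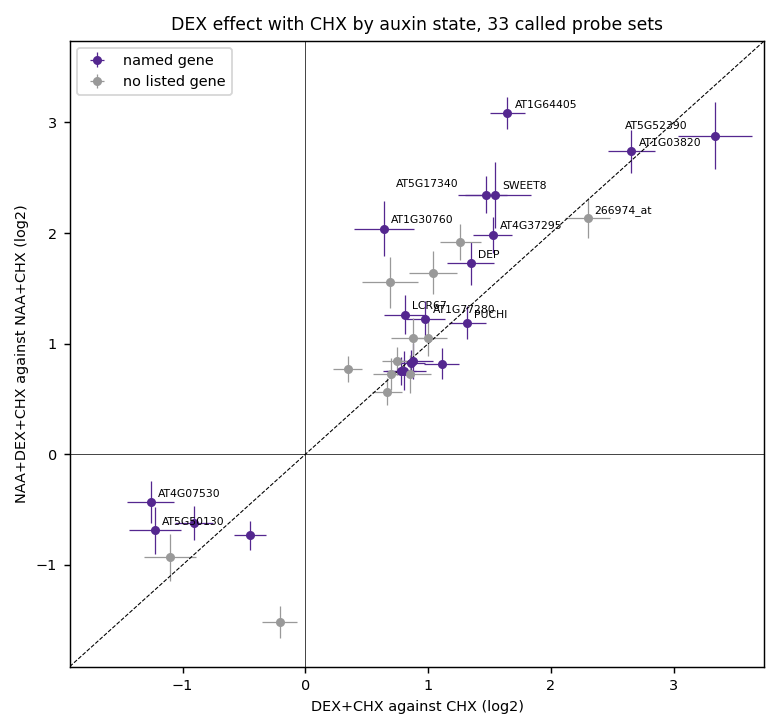
DEX effect with CHX (log2, error bars are the model's SE) with NAA against that without NAA for the 33 called probe sets, named genes in purple and probe sets with no listed gene in grey, with the line of equal effects dashed. AT1G64405 lies furthest above the line among named rises, at 1.64 and 3.09, and AT1G03820 lies on it, at 2.66 and 2.74.

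Of the probe sets called in 1 auxin state, 6 were not called in the mean. FDH (AT5G14780), formate dehydrogenase, gave 1.46 with NAA (adjusted p = 0.018), from 3.235 and 13.53 to 48.95 and 50.37, and its CHX and DEX+CHX arrays lay at 51.26 to 76.56. The NAA+CHX arrays were thus the low ones and the other 6 were alike. AT3G05400 gave 1.04 with NAA (adjusted p = 0.04), from 4.47 and 6.104 to 24.05 and 31.46, and AT5G60400 and AT1G49200 gave -1.67 and -1.44 (adjusted p = 0.012 and 0.04). These 4 were weak signals of under 110 on every array with CHX, and FDH kept its call in 1 of 4 settings with an array of the comparison left out, that without NAA+CHX replicate 2, and the other 3 genes in none. The other 2 probe sets have no listed gene.

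Most rises under CHX were transcripts that auxin also raised in roots with neither DEX nor CHX. NAA vs mock shares no array with the comparison under CHX. Both took the spread of each probe set from the same model of 16 arrays, so their calls are not independent. NAA vs mock was not fitted on its own arrays alone. In NAA vs mock, 22 of the 27 rises were called higher (12 of the 16 named), 0 lower and 5 were not called, against 7.3% of all probe sets called higher and 6.07% lower. The count was 20 to 21 of 27 with 1 array left out, and 21 to 22 in the other settings. WES1 gave 4.18 (18.1-fold, SE 0.12, adjusted p = 1e-08), AT4G37295 4.11 (SE 0.16), AT1G30760 3.0 (SE 0.25) and PUCHI 2.96 (7.77-fold, SE 0.15, adjusted p = 3.9e-07). AT1G64405, AT1G77280, AT5G17340 and AT1G03820 gave 2.46, 1.99, 1.68 and 1.34, and DEP and EXPA20 1.08 and 1.06. EXPA4 and AT4G14390 were called at 0.69 and 0.61. The named rises not called there were AT5G52390 (0.06, adjusted p = 0.94), SWEET8 (-0.32, adjusted p = 0.55), LCR67 (0.12, adjusted p = 0.73) and AT1G28400 (0.2, adjusted p = 0.42). AT5G52390 had a mean of 33.05 in mock and 35.31 in NAA roots.

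The levels behind these values are given for the 5 named rises that NAA raised by over 2 on the log2 scale. PUCHI averaged 283.5 ± 10.8 in CHX and 307.8 ± 15.2 in NAA+CHX (SD, n = 2 each), against 55.12 ± 11.9 in mock and 533.9 ± 54.7 in NAA. WES1 averaged 1405 ± 77.02 and 1694 ± 25.05 with CHX, and 614.9 ± 14.3 and 11410 ± 977 without it. AT4G37295 averaged 701.4 ± 39.2 and 785.6 ± 85.9 with CHX, and 112.1 ± 3.445 and 2203 ± 157.2 without it. AT1G64405 averaged 68.84 ± 15.3 and 55.27 ± 3.34 with CHX, and 544.5 ± 43 and 3070 ± 75.2 without it. AT1G30760 averaged 17.1 ± 12.2 and 4.325 ± 4.39 with CHX, and 91.43 ± 11.9 and 844.3 ± 32 without it. With CHX the mean with NAA was the higher one in PUCHI, WES1 and AT4G37295 and the lower one in AT1G64405 and AT1G30760. These means describe the levels and were not tested against each other here, since they include the control arrays of the DEX comparison. Of the 27 rises, 13 had a CHX mean below the mock mean and 14 one above it. AT1G28400 averaged 6944 in mock and 204.2 in CHX roots, and AT1G03820 721.6 and 55.28. In the other direction were PUCHI, WES1 and AT4G37295, and SWEET8, which went from 25.84 to 85.31.

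**Figure D4:**
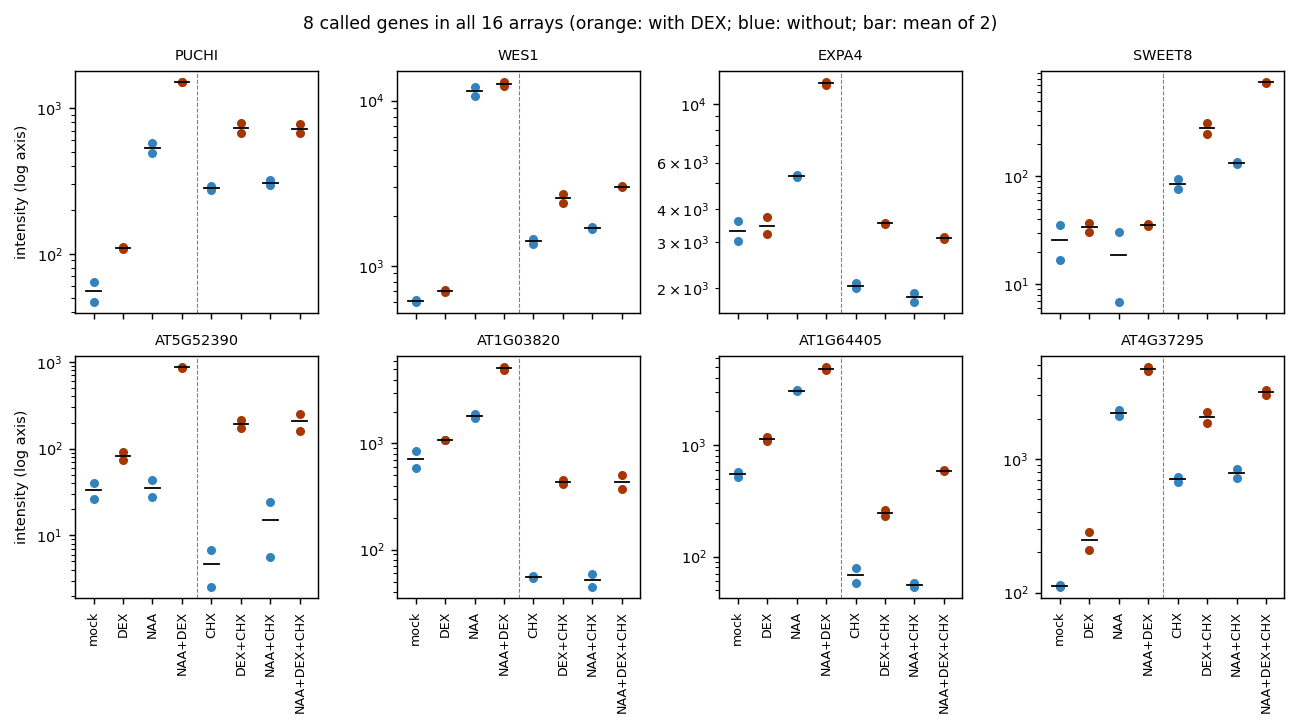
Intensity (log axis, own scale per panel) of PUCHI, WES1, EXPA4, SWEET8, AT5G52390, AT1G03820, AT1G64405 and AT4G37295 on all 16 arrays, with CHX groups right of the dashed line, DEX arrays in orange and a bar at the mean of 2 arrays. In each panel both DEX groups with CHX lie above their controls, for example at 733.1 and 722.9 against 283.5 and 307.8 for PUCHI.

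The mean DEX effect in the 8 arrays without CHX, which share no array with the comparison under CHX, called 366 of all probe sets (1.61%). Both effects took the spread of each probe set from the same model of 16 arrays, so their calls are not independent. Of the 27 rises 14 were also called higher without CHX (10 of the 16 named), against 0.624% of all probe sets, and 13 were not called. The 14 became 10 without mock replicate 1 or NAA+DEX replicate 1, lay between 11 and 13 without any other single array and were 8 in a model of the 8 arrays without CHX. PUCHI gave 1.25 with CHX and 1.15 without it, a difference of 0.1 that was smaller than its SE of 0.15 (adjusted p = 0.94). AT4G14390 gave 0.78 and 0.82, EXPA4 0.76 and 0.62, AT5G17340 1.91 and 1.7, and AT5G52390 3.11 and 2.57, with differences of -0.04, 0.15, 0.21 and 0.54 that did not pass (adjusted p of 0.74 or higher). These values without CHX average auxin states that were unlike each other. EXPA4 went from a mean of 3307 to 3459 with DEX alone and from 5328 to 12010 with DEX and NAA, and AT4G14390 from 171.4 to 214.2 and from 270.9 to 708.2. AT5G52390 went from 33.05 to 82.34 and from 35.31 to 866.7, and AT5G17340 from 69.5 to 142.5 and from 255.8 to 1532. In each of these 4 the step was larger with NAA, a difference that is not tested here.

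The named rises that were called with CHX and not without it were SWEET8 (1.94 and 0.47), DEP (1.53 and 0.31), AT1G77280 (1.1 and 0.47), LCR67 (1.04 and 0.02), EXPA20 (0.86 and 0.17) and WES1 (0.84 and 0.16). A difference in calls is not itself a difference in effect. The DEX by CHX interaction tests it, and none of these 6 passed: the adjusted p was 0.056 for DEP, 0.064 for WES1 and LCR67, 0.13 for SWEET8, 0.2 for EXPA20 and 0.24 for AT1G77280.

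The interaction called 17 probe sets in all (0.0747%), 10 with a higher effect under CHX (0.044%) and 7 with a lower one (0.0308%). Of the 17, 4 were rises under CHX, and each of the 4 rose more with CHX. The rises were chosen for a high effect with CHX, which the interaction also contains. This shared direction therefore follows largely from the choice. The 4 were AT1G64405 (difference 1.53, SE 0.14, adjusted p = 0.0045), AT1G03820 (1.66, SE 0.2, adjusted p = 0.021) and the probe sets 266974_at and 258487_at, which have no listed gene. Probe set 266974_at was the largest rise with CHX among those with no listed gene, from 52.25 and 36.01 to 273 and 280.9 without NAA and from 60.62 and 83.06 to 374.4 and 358.6 with it. Without CHX its DEX and control arrays overlapped, at 308.9 and 291.1 in mock, 338.7 and 308.3 in DEX, 4166 and 3458 in NAA, and 3235 and 4086 in NAA+DEX. Its DEX effect was thus 2.22 with CHX and 0.02 without it (difference 2.2, SE 0.18, adjusted p = 0.0025). The calls of AT1G64405 and 266974_at held with each of the 16 arrays left out, that of AT1G03820 in 5 of 16 such settings with adjusted p up to 0.098, and that of 258487_at in 1. The 17 became 2 to 33 with 1 array left out. They were 33 without mock replicate 2, and 2 without either array of DEX+CHX, without CHX replicate 1 and without replicate 2 of NAA, NAA+DEX, NAA+CHX or NAA+DEX+CHX. Further, they were 3 without CHX replicate 2, DEX replicate 2 or NAA replicate 1, 5 without NAA+DEX replicate 1, 7 without mock replicate 1, 8 without NAA+CHX replicate 1, 11 without NAA+DEX+CHX replicate 1 and 12 without DEX replicate 1.

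**Figure D5:**
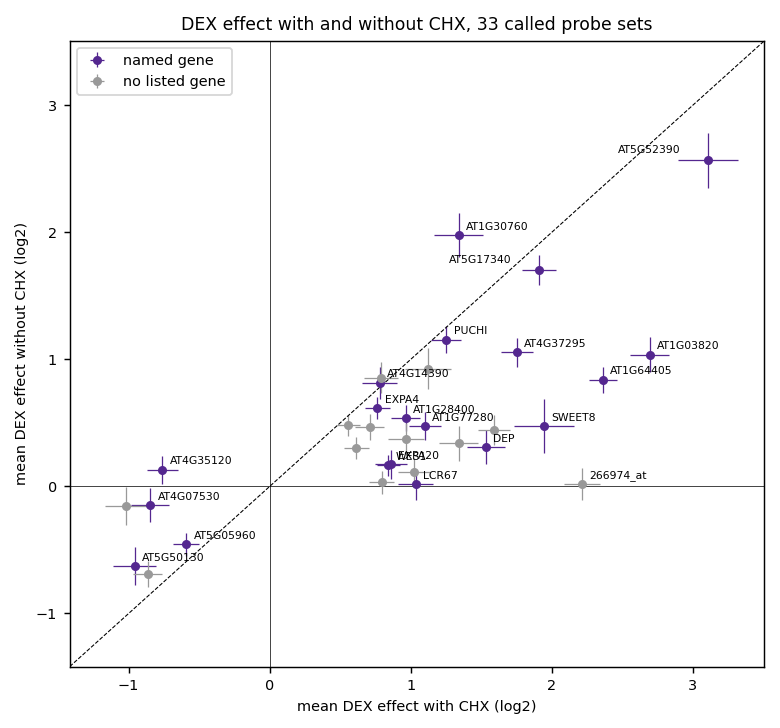
Mean DEX effect without CHX against that with CHX (log2, error bars are the model's SE) for the 33 called probe sets, named genes in purple and probe sets with no listed gene in grey, with the line of equal effects dashed. PUCHI lies near the line, at 1.25 with CHX and 1.15 without, and 266974_at lies on the horizontal axis, at 2.22 and 0.02.

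Gene lists of the auxin and lateral root pathway were read against the background of 0.119% rises and 0.0264% falls. The table used here names only part of each family, so a list speaks for its measured genes. Of 4 measured lateral root initiation genes PUCHI rose, 0 fell and 3 were not called (median 0.19, against -0.02 over all probe sets). These were LBD16, LBD29 and CR4 (ACR4, a receptor kinase that restrains divisions in founder cells, 0.25, adjusted p = 1). Of 3 AP2/ERF relatives PUCHI rose, and LEP and BBM gave -0.14 and -0.11 (adjusted p = 1 each). Of 5 GH3 enzymes WES1 rose and 4 were not called (median 0.12). GH3.3, another auxin-conjugating enzyme, gave -0.03 (adjusted p = 1), and GH3.1 gave 0.17 with CHX and 0.89 without it (adjusted p = 1 and 0.0077). The DEX by CHX interaction of GH3.1 did not pass (adjusted p = 0.27). Of 7 Aux/IAA repressors, a family that restrains the auxin response factors, 0 were called, with values from -0.26 to 0.25 and IAA34 and IAA29 at -0.26 and 0.25 (adjusted p = 1 each). Not all 7 were raised by auxin here. In NAA vs mock IAA18, IAA20, IAA29 and IAA30 were called higher and IAA33 lower (-1.25, adjusted p = 0.022), and IAA31 and IAA34 were not called.

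Among the 19 measured expansins the 2 rises were EXPA4 and EXPA20, with 17 others not called, 0 falls and a median of 0.01. Of 10 XTH enzymes, which cut and rejoin wall xyloglucan, 0 were called (median -0.16), and XTH32 and XTH20 gave -0.51 and -0.48 (adjusted p = 0.21 and 0.35). Both of these passed without CHX, where XTH32 fell by 0.71 and XTH20 by 1.25 (adjusted p = 0.0068 and 0.0011), while XTH16 rose by 0.58 (adjusted p = 0.025) and gave -0.14 with CHX. The DEX by CHX interaction did not pass for XTH32, XTH20 or XTH16 (adjusted p = 0.81, 0.18 and 0.16). Of 4 pectin enzymes 0 were called (median -0.19, ATPMEPCRB -0.42, PME61 -0.28). Of 7 cell cycle genes 0 were called, with values from 0.02 to 0.2 (AUR2, an Aurora kinase, 0.2, and CDC27a, a subunit of the anaphase-promoting complex, 0.12). Of 16 SWEET transporters SWEET8 rose and 15 were not called (median -0.06). Among 6 cytokinin response genes, 9 U-box ubiquitin ligases and 8 rapid stress factors 0 were called, with ranges of -0.07 to 0.19, -0.1 to 0.12 and -0.08 to 0.03. WAG2 was the only measured gene of auxin transport (-0.09, adjusted p = 1).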

How the data were processed

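Biotin-labelled cRNA of 16 root samples was hybridised to single-colour arrays. Per the submitters' processing notes, the authors used Affymetrix Expression Console 1.3. The deposited values are intensities on a linear scale, and their 2% trimmed mean averaged 500 over the 16 arrays. The summary method and background correction are not given in the sources used here.

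Of 22810 probe sets, 64 controls were removed. Groups came from the titles. Names came from the platform annotation and TAIR10.1 gene table (13513 probe sets with 1 gene, 503 with several, 8730 with none listed). Coordinates of the gene table served only to order neighbouring genes, and no sequences were used. The promoter motifs of the plan were not searched. Log2(intensity + 16) was fitted in limma 3.58.1 (R 4.3.3) as 8 group means with 8 residual degrees of freedom, eBayes and two-sided tests, after a check on simulated data. The number of arrays limits the precision. Same-numbered arrays deviated together with r of -0.06 to 0.07 over 28 pairs of groups and were not paired.

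Named are all called probe sets with 1 gene, LBD16, LBD18, LBD29, LBD33 and PUCHI, up to 5 rises and 5 falls of other contrasts, 6 just outside the threshold and list members (those called, otherwise 2 or fewer by value), with further list members and probe sets without a gene chosen after their values were seen. The comparison, lists and tests were chosen with earlier results of these data known.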

Additional observations from a re-analysis of the deposited data

Results flagged for a closer look

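The genes below differed in their mean DEX effect between roots with and without CHX by the interaction test itself in limma (5 largest differences each way with 1 listed gene). The differences are effects with CHX minus effects without it on the log2 scale, and no explanation was tested. They were 1.66 for AT1G03820 (2.7 with CHX, 1.04 without, adjusted p = 0.021) and 1.53 for AT1G64405 (2.36 and 0.84, adjusted p = 0.0045). They were 1.23 for AT1G21440 (-0.03 and -1.26), 1.2 for AT4G03740 (0.2 and -1) and 1.19 for AT4G30450 (-0.37 and -1.56), with adjusted p of 0.047, 0.043 and 0.043. In the other direction they were -2.35 for AT1G05577 (-0.31 and 2.04), -1.35 for AT1G48100 (-0.75 and 0.6), -1.2 for AT5G17350 (0.1 and 1.3), -0.96 for EXPA15 (0.1 and 1.06) and -0.94 for AT1G10380 (-0.1 and 0.84), each with an adjusted p of 0.043. For AT1G48100 the value with CHX did not pass (adjusted p = 0.059), whereas it rose without CHX (adjusted p = 0.037). Its arrays with CHX lay at 1.537 to 24.97, a weak signal. AT5G17350 had group means of 3041 to 3890 with CHX and of 78.16 to 710.6 without it, so its 2 effects start from unlike levels. Other genes also started from unlike levels. The means without DEX of AT1G03820 were 55.28 and 51.52 with CHX, against 721.6 in mock and 1817 in NAA roots. For AT1G64405 they were 68.84 and 55.27 with CHX, against 544.5 in mock and 3070 in NAA roots.

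The value of 0.2 for AT4G03740 with CHX averages 1.11 without NAA and -0.705 with it, and its arrays all lay at 26.36 or lower. That of AT1G05577 averages 0.43 and -1.06, with signals of 38 or lower on the arrays with CHX. Several values without CHX also average unlike auxin states. EXPA15 averaged 1852 in mock and 1880 in DEX roots, but 846.4 in NAA and 3677 in NAA+DEX roots. AT1G21440 went from 2333 to 1823 with DEX alone and from 1355 to 286.6 with DEX and NAA. For AT4G30450 these steps were 2715 to 2367 and 674.2 to 74.7. AT1G10380 rose in both states, from 639 to 1264 and from 1090 to 1804. AT1G03820 also rose in both, from 721.6 to 1078 and from 1817 to 5090, as did AT1G64405, from 544.5 to 1125 and from 3070 to 4834. These differences between states were not tested.

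AT1G64405 kept its call with each of 16 arrays left out. AT1G03820 kept it in 5 of these 16 settings, AT1G48100 in 3, AT5G17350, AT4G30450 and EXPA15 in 2, AT4G03740, AT1G05577 and AT1G10380 in 1 and AT1G21440 in 0. The constant of 1 ended 7 of these 10 calls (not AT1G64405, AT1G03820 and AT1G48100), median centring 8 (not AT1G64405 and AT1G48100) and the replicate block 7 (not AT1G64405, AT1G03820 and AT1G05577). AT4G03740 also lost it with a constant of 64 and with the trend and robust prior, AT1G21440 with quantile normalization and array weights, and AT1G10380 with quantile normalization.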

How the results depend on the processing

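The 20 named genes kept the sign of their DEX effect with CHX in every setting run. Their calls were kept in 275 and lost in 82 of the settings, counted over genes. The 33 probe sets called for the mean DEX effect with CHX were 32 to 49 with other constants, filters, scalings, priors, array weights or the replicate block, 11 in the 8 CHX arrays as group means, 20 with additive terms, and 21 to 39 with 1 array left out. Without NAA the 12 became 0 in the 8 CHX arrays alone by limma (1295 at an unadjusted p under 0.05) and 4 to 10 with 1 array left out. With NAA the 25 became 8 and 12 to 27. The DEX by NAA interaction gave 2 under the trend and robust prior and 0 to 1 with 1 array left out. The mean DEX effect without CHX called 366, which became 589 with a constant of 64, 551 with a minimum mean intensity of 50, 620 with trend and robust prior, 91 in its own 8 arrays and 183 to 582 with 1 array left out. It had 142 rises and 224 falls, and 166 and 158 with median centring. The 17 calls of the DEX by CHX interaction became 6 and 101 with constants of 1 and 64, 66 with the minimum intensity, 3 with median centring, 97 with trend and robust prior, 5 with the replicate block and 2 to 33 with 1 array left out. NAA vs mock called 3042 (1661 higher and 1381 lower, and 1156 and 1640 with median centring), and 1510 to 2978 with 1 array left out. The replicate block gave 33, 9, 21 and 0 calls for the 4 comparisons with CHX, 326 for the DEX effect without it and 2853 for NAA vs mock, and it ended the calls of AT4G14390, AT5G05960, AT4G07530 and AT5G50130. Where the spread came from 8 arrays alone, fewer residual degrees of freedom entered the test. The cause of the other shifts was not tested. Signals near the floor of the scale limit the fold changes of AT5G52390, LCR67, AT1G30760, AT4G35120 and AT4G07530.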

Other observations

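The genes next to those that DEX changed under CHX were read as well, taking order along the chromosome from the gene table. Of the 20 named genes, 15 had at least 1 measured protein-coding neighbour. Of these 20 neighbour probe sets 0 were called in limma, against 0.145% of all probe sets. These 20 are too few to set their share apart from that one. The highest was AT4G37290, next to AT4G37295, at 0.49 (SE 0.14, adjusted p = 0.42). Its 4 DEX arrays with CHX all lay above the other 4, and it was called higher without CHX (0.85, adjusted p = 0.01). AT5G18550, next to PUCHI, gave 0.3 (SE 0.14, adjusted p = 0.86). AT4G14380 and AT4G14390 are separated by AT4G14385. They gave 0.67 (adjusted p = 0.061) and 0.78 (adjusted p = 0.045) with CHX, and 0.98 and 0.82 without it (adjusted p = 0.0019 and 0.0077), whereas AT4G14385 gave 0.12 (adjusted p = 0.98). Whether the 2 outer probe sets read each other's transcript was not tested.

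Probe set 249131_at, which has no listed gene, was chosen after its values were seen. It measured 1.645 to 5.445 on the 4 CHX arrays without DEX, 14.42 to 22.19 on the 4 with DEX, and 1.687 to 5.954 on the 8 arrays without CHX. Its DEX effect with CHX was 0.79 (SE 0.09, adjusted p = 0.0037) and ran from 0.28 to 2.01 over the settings. It was not called with a constant of 64, with the trend and robust prior or in the 8 CHX arrays as group means (adjusted p up to 0.25), and the intensity filter left it out.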
